A study of Danio rerio with 15 samples.

Results

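The change in gene expression between 24 and 48 hours post-fertilization (hpf) in *esco2* morphants, zebrafish embryos depleted of the cohesin acetyltransferase Esco2, was measured on 8 of the 15 arrays of the series. The arrays were chosen by their labels alone: 4 held morphants at 48 hpf and 4 held morphants at 24 hpf. Wild type embryos had been injected at the 1-cell stage, per the labels, with the *esco2* morpholino (MO) or, for the controls, with buffer only. The other 7 arrays held those controls, 3 at 48 hpf and 4 at 24 hpf, and gave the change with age that the morphants were set against. Each array was hybridized with RNA from 1 pool of 50 dechorionated whole embryos, so that the spread between arrays is the spread between pools.

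The study's MO covers the start codon of *esco2* and blocks translation without removing the transcript, so the *esco2* value on an array does not check the knockdown. No array held embryos with an unrelated MO, and the response to injection of any MO cannot be told apart from the response to loss of Esco2. Nor can fewer cells of a type be told apart from less RNA per cell, because whole embryos were used.

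Esco2 acetylates cohesin during S phase, which locks the ring around the replicated sister chromatids until they separate in mitosis. In people, loss of ESCO2 causes Roberts syndrome, with short limbs and craniofacial defects. Over the day that separates the samples, a zebrafish embryo completes its last somites at the tail bud, its trunk muscle and lens fibers mature, its neurons form synapses, its fin folds and fin buds grow, and the share of dividing cells falls. The comparison therefore asks which of these changes take place in embryos depleted of Esco2, and whether their size is that of controls.

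Values were log2 expression values made by the authors with RMA, 1 value per probe set, and a difference of 1 is a fold of 2. The table held 15617 probe sets. After removal of 115 that Affymetrix includes as controls, 15502 entered the test, and the 10795 with a single gene symbol represent 8793 genes. A gene with several probe sets is given by the brightest of them. The p-values are two-sided, come from a limma fit to all 15 arrays and carry the Benjamini-Hochberg adjustment for 15502 probe sets. A gene is said to have risen or fallen where its adjusted p was 0.05 or less, and changes of at least 2-fold are counted separately. The lower quartile of an array's values lay between 4.12 and 4.35, and in that dim range an array shows only part of a change. Mean correlations of an array with the others of its group were 0.996 to 0.997 for morphants. The 3 control arrays at 48 hpf were less alike, with 0.992, 0.985 (replicate 3) and 0.989, each below every other array. The median SD over probe sets was 0.161 in that group and 0.097 to 0.116 in the others. The fit shares 1 estimate of the spread per probe set across all groups. The markers checked for heart (*myl7*), lens (*cryaa*), muscle (*mylpfa*), skin (*krt4*) and neurons (*elavl3*) averaged between 4.45 and 13.26 in the morphant groups, and those chosen for red cells and the hatching gland were not matched to a probe set.

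With age, 1905 of 8793 genes rose in morphants (21.7%) and 2405 fell (27.4%). In 1904 genes (21.7%) every array at 48 hpf was above every array at 24 hpf, and in 2440 (27.7%) every array was below. At a fold of at least 2, 342 genes rose (3.89%) and 191 fell (2.17%). The corresponding counts of probe sets were 549 (3.54%) and 282 (1.82%), among 3277 (21.1%) and 3321 (21.4%) past the test in these directions. The largest rise was 59.4-fold and the largest fall 19.2-fold. Of the 533 genes changed by at least 2-fold, 85 have another probe set, and in 75 of these another probe set changed in the same direction. In 1 gene, *her3*, another probe set changed in the opposite direction; this gene is named for that reason alone and was chosen after its values were seen. These counts are relative to the array's overall level. When each array was centred on the ribosomal protein genes, whose log2 values fell with age, the median change of all genes was 0.24 in place of -0.01. The share of rises among the 2-fold changes was then 85.0% in place of 64.2%, with 543 genes raised and 96 lowered. Without the fold limit 4702 of 8793 genes rose and 1136 fell under this centring, the background for the centred counts of lists below. The centring shifts all values of an array alike, so a list's median relative to that of all genes stays the same.

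Genes of the sarcomere and of calcium handling in skeletal muscle were among the 15 named genes with the largest rises. The largest of all 8793 genes was that of *atp2a1l*, which encodes a calcium pump of the sarcoplasmic reticulum of fast muscle. Its log2 values were 10.32, 10.28, 10.68 and 10.45 in morphants at 48 hpf, against 4.64, 4.71, 4.24 and 4.58 at 24 hpf. The ages did not overlap, and the change was 59.4-fold (log2 5.89, standard error 0.11, adjusted p = 7.2e-17). The fast troponin T gene *tnnt3b* had 12.55, 12.75, 12.70 and 12.77 in morphants at 48 hpf, against 8.89, 8.80, 8.68 and 8.98 at 24 hpf (log2 change 3.85, standard error 0.08, adjusted p = 1.2e-16). Parvalbumins buffer calcium and speed the relaxation of fast fibers. Their genes *pvalb1*, *pvalb4* and *pvalb5* rose by 4.35, 3.99 and 3.58 on the log2 scale. After it came *tcnbb*, which encodes a binding protein for vitamin B12, with 10.59, 10.41, 10.45 and 10.46 in morphants at 48 hpf, against 5.08, 5.18, 4.98 and 4.88 at 24 hpf (43.7-fold, adjusted p = 1.2e-16). The gene *slc25a4*, which encodes the ADP/ATP carrier of the mitochondrial inner membrane, had log2 values of 11.16, 11.18, 11.26 and 11.11 in morphants at 48 hpf, against 5.89, 5.74, 5.90 and 6.04 at 24 hpf (38.9-fold, adjusted p = 2.7e-18). Of 54 measured muscle genes 35 rose and 7 fell, where 21.7% and 27.4% of all genes did so. By at least 2-fold 20 rose and 5 fell. The median log2 change of the list was 0.63, against -0.01 over all genes.

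Among the members that fell were other troponin genes. The troponin T gene *tnnt2c* had log2 values of 4.72, 4.49, 4.15 and 4.47 in morphants at 48 hpf, against 7.03, 6.95, 6.92 and 6.91 at 24 hpf, without overlap (log2 change -2.49, standard error 0.12, adjusted p = 2.4e-11). The troponin I gene *tnni2b.1* fell by 2.42 (adjusted p = 1.2e-11). Troponins regulate the thin filament, and members of this family thus moved in opposite directions in the same pools of embryos. In controls the median of the list was 0.62. The test of the difference between the age changes called 4 members above controls and 3 below, where over all genes 4.05% were above and 3.16% below. *pvalb1* rose more in morphants than in controls by 0.87 (standard error 0.15, adjusted p of the difference = 0.0019) and *tnnt3b* by 0.67 (adjusted p of the difference = 0.0027), while another parvalbumin gene, *pvalb3*, rose less, by 1.75 in morphants and 2.48 in controls (adjusted p of the difference = 0.0017). For *atp2a1l* the difference was 0.29 (standard error 0.17, adjusted p of the difference = 0.37).

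Of 32 regulators that specify muscle and somites 16 fell and 6 rose, where 27.4% and 21.7% of all genes did so. The median was -0.29 in morphants and -0.26 in controls. When the arrays were centred on the ribosomal protein genes 10 were lowered and 12 raised, with a median of -0.03. Relative to the median of all genes the list's median in morphants was -0.27 with and without this centring. The gene *cdx4*, a caudal homeobox gene of the tail bud, had log2 values of 4.21, 4.21, 3.94 and 4.39 in morphants at 48 hpf, against 7.51, 7.36, 7.36 and 7.24 at 24 hpf (log2 change -3.18, standard error 0.14, adjusted p = 4.3e-12). The gene *msgn1*, which encodes the presomitic mesoderm regulator mesogenin, had 4.32, 4.40, 4.31 and 4.44 in morphants at 48 hpf, against 7.34, 7.41, 7.47 and 7.22 at 24 hpf (log2 change -2.99, adjusted p = 6e-14). Both genes were at or near the dim range at 48 hpf, and a dimmer probe set of *msgn1* fell by 0.17 (adjusted p = 0.032). The T-box gene of the same tissue, *tbx6*, fell by 2.11, and *myog*, which encodes the muscle differentiation factor myogenin, by 2.19. For *cdx4*, *msgn1*, *tbx6* and *myog* the difference from controls did not pass the test (adjusted p of the difference between 0.14 and 0.84). In contrast *dlc*, a Notch ligand gene of the segmentation clock, rose by 0.72 in morphants, with a change of 0.05 in controls (adjusted p of the difference = 0.027), although the difference did not pass the test for its other 2 probe sets (adjusted p = 0.39 and 0.40).

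**Figure D1:**
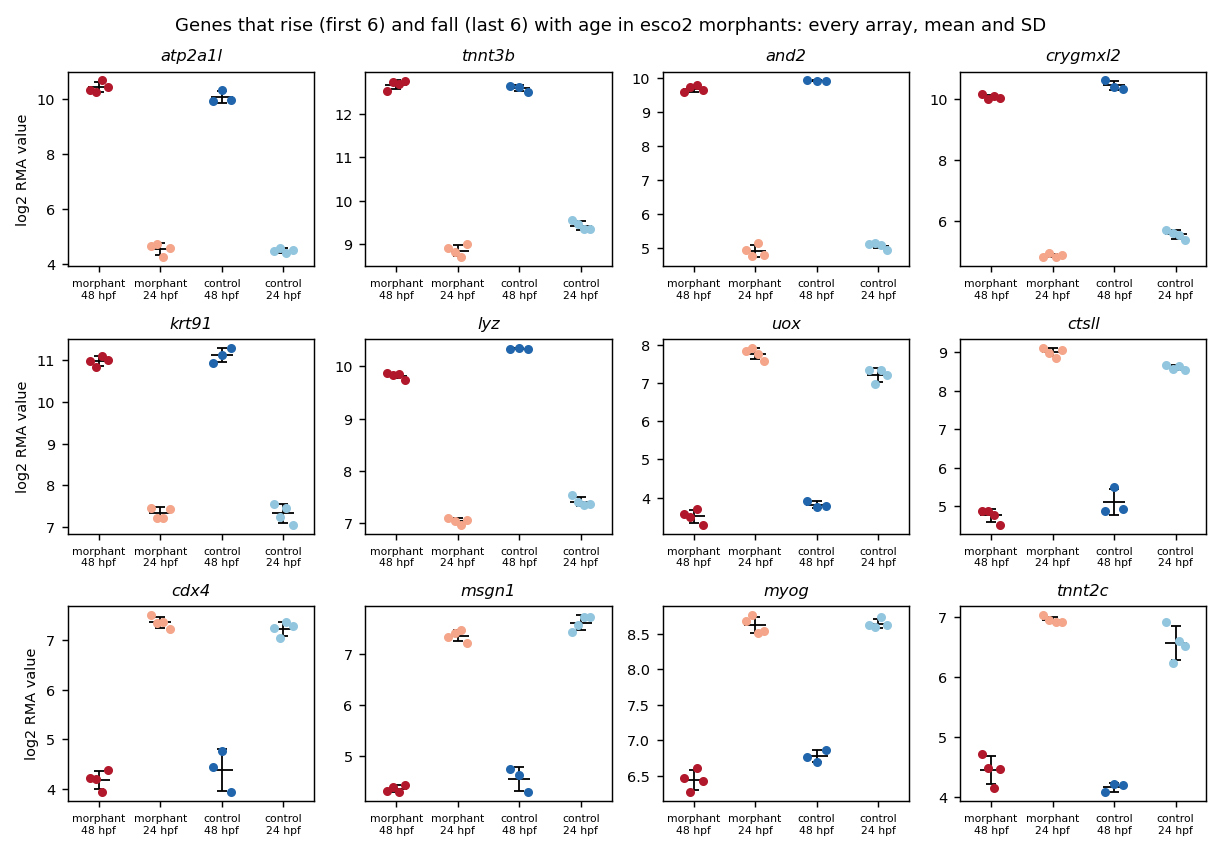
Log2 RMA values (vertical axis) of 12 genes on every array, for morphants at 48 and 24 hpf and controls at 48 and 24 hpf, with the group mean and SD in black. In the first 6 genes each morphant array at 48 hpf lies above each at 24 hpf, in the last 6 each lies below, and *atp2a1l* spans the widest range, with a log2 change of 5.89 in morphants.

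Crystallins fill the lens fibers, and 3 of their genes were also among the largest rises. The log2 values of *crygmxl2*, a gamma-crystallin gene, were 10.15, 9.98, 10.09 and 10.03 in morphants at 48 hpf, against 4.82, 4.93, 4.8 and 4.89 at 24 hpf (36.8-fold, adjusted p = 2.7e-18). The beta-crystallin gene *cryba4* had 11.14, 11.04, 11.06 and 11.06 in morphants at 48 hpf, against 6.31, 5.97, 6.02 and 6.17 at 24 hpf (31.1-fold), and *crybb1*, another, had 11.54, 11.57, 11.62 and 11.63 in morphants at 48 hpf, against 7.43, 7.12, 6.93 and 7.26 at 24 hpf (21.2-fold). Both rose more in morphants than in controls, *cryba4* by 1.04 (adjusted p of the difference = 0.00061) and *crybb1* by 1.46 (adjusted p of the difference = 0.00015). The levels at 24 hpf differed: *crybb1* averaged 7.19 in morphants and 8.02 in controls, while at 48 hpf it averaged 11.59 and 10.96. The alpha-crystallin gene *cryaa* rose by 1.42 (adjusted p = 3e-10), and *bfsp2*, which encodes the lens filament protein phakinin, by 1.63 (adjusted p = 1.8e-10). In all 7 of 12 measured lens genes rose, where 21.7% of all genes did so. The remaining 5 showed no change past the test and were of low level, as *cryaba* with 3.88 ± 0.14 in morphants at 48 hpf and 3.97 ± 0.13 at 24 hpf (SD, n = 4 each).

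Most regulators of the retina rose, and several rose by less than in controls. Of 30 genes 19 rose and 1 fell in morphants, where 21.7% and 27.4% of all genes did so. The median was 0.37 in morphants and 0.64 in controls. The difference of the age changes passed the test in 9 genes below controls and 1 above, where over all genes 3.16% were below and 4.05% above. The photoreceptor regulator *crx* had log2 values of 4.73, 4.32, 5.19 and 5.04 in morphants at 48 hpf, against 3.82, 3.88, 3.84 and 3.60 at 24 hpf, without overlap. In controls they were 6.67, 6.62 and 6.57 at 48 hpf, against 3.80, 4.13, 3.77 and 4.00 at 24 hpf. The gene rose by 1.03 in morphants and by 2.7 in controls, a difference of -1.66 (standard error 0.21, adjusted p of the difference = 0.0002). Its partner *otx2b* rose by 0.64 against 1.57 (adjusted p of the difference = 0.00013), and *atoh7*, which is needed for retinal ganglion cells, by 1.74 against 2.58 (adjusted p of the difference = 0.011). The gene *foxn4*, which acts in precursors of amacrine and horizontal cells, rose by 1.83 against 1.61, with no difference past the test (0.21, standard error 0.13, adjusted p of the difference = 0.41), and its dimmer probe sets changed by 0.05 and 0.57 in morphants. Of 29 phototransduction genes 7 rose and 3 fell, where 21.7% and 27.4% of all genes did so. The largest of these rises was that of *rpe65a*, an enzyme of the retinoid cycle in the pigment epithelium, by 0.81 (adjusted p = 1.6e-05). The lowest log2 change of the list was -1.36, and by at least 2-fold 1 member fell and 0 rose.

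Genes of differentiated neurons had the largest share of rises among the 40 lists of genes examined. Of 60 structural, synaptic and transmitter genes 50 rose, 28 by at least 2-fold, and 1 fell. Over all genes 21.7% rose, 3.89% by at least 2-fold, and 27.4% fell. The vesicle fusion gene *snap25b* had log2 values of 7.89, 7.83, 8.01 and 7.96 in morphants at 48 hpf, against 5.62, 5.52, 5.73 and 5.71 at 24 hpf (log2 change 2.27, standard error 0.07, adjusted p = 1.7e-14). The synaptophysin gene *sypb* had 7.50, 7.44, 7.48 and 7.40 in morphants at 48 hpf, against 5.72, 5.56, 5.78 and 5.58 at 24 hpf (log2 change 1.79, adjusted p = 1.1e-12). Neurexins join the synaptic membranes, and *nrxn1a* rose by 1.77 (adjusted p = 3e-12). In these genes the ages were far apart and the arrays of an age close together. The list's median was 0.84 in morphants and 1.15 in controls. In 48 of 60 members the change was smaller in morphants, where this held for 4363 of all 8793 genes. By the test of the difference 10 members were below controls, where 3.16% of all genes were, and the rest did not pass. Without control replicate 3 at 48 hpf 18 were below, without control replicate 4 7, and with the arrays centred on the ribosomal protein genes 5. Of all 8793 genes 300, 362 and 191 were below controls in these settings, in the same order. Among the 10 were the RNA-binding protein gene *celf3a*, which rose by 0.76 against 1.37 (adjusted p of the difference = 0.0046), and *cnrip1a*, by 0.84 against 1.51 (adjusted p of the difference = 0.0011). The member that fell was the sodium pump subunit gene *atp1b3a* (-0.49, adjusted p = 0.00076), with morphant replicate 1 at 48 hpf lowest, and its other probe set did not pass (-0.10, adjusted p = 0.71), nor did it pass with ribosomal centring (-0.23, adjusted p = 0.056).

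Genes of neural progenitors moved both ways, 21 of 53 up and 14 down, where 21.7% of all genes rose and 27.4% fell. The largest rise was that of *fabp7a*, which encodes the fatty acid binding protein of radial glia, with log2 values of 10.52, 10.30, 10.46 and 10.38 in morphants at 48 hpf, against 7.97, 7.70, 7.47 and 7.85 at 24 hpf. It rose 6.37-fold, by 2.67 in morphants against 1.87 in controls (adjusted p of the difference = 0.0041). Its mean was below that of controls at both ages, 7.75 against 8.98 at 24 hpf and 10.42 against 10.86 at 48 hpf. The proneural gene *ascl1a* rose by 0.99 against 0.46 (adjusted p of the difference = 0.011). Its mean too was below that of controls, 8.08 against 8.69 at 24 hpf and 9.07 against 9.15 at 48 hpf. The gene *insm1b*, which acts as progenitors leave the cell cycle, rose by 1.43 against 1.35 (adjusted p of the difference = 0.74). The Hairy and Enhancer of split gene *her2* had log2 values of 7.29, 7.13, 7.09 and 7.16 in morphants at 48 hpf, against 8.19, 8.18, 8.16 and 8.08 at 24 hpf. In controls the values were 6.49, 6.42 and 6.74 at 48 hpf, against 8.80, 8.83, 8.95 and 8.88 at 24 hpf, so that the change was -0.99 in morphants and -2.32 in controls (adjusted p of the difference = 5.5e-06). The Iroquois genes *irx7* and *irx1b* fell by 1.46 and 1.1, while the changes in controls were -0.88 and -0.58 (with an adjusted p of the difference of 0.0051 and 0.011). The glial glutamate transporter gene *slc1a2b* rose by 2.66 (adjusted p = 2.1e-15), while *glula*, which encodes glutamine synthetase, fell by 0.61 (adjusted p = 7.1e-06).

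Most genes of DNA replication fell in morphants. Of 58 replication genes 48 fell and 10 did not pass the test, where 27.4% of all genes fell. The median was -0.48 in morphants and -0.64 in controls. When the arrays were centred on the ribosomal protein genes 32 fell. Geminin limits origin licensing to once per cycle, and its gene *gmnn* had log2 values of 5.47, 5.59, 5.6 and 5.20 in morphants at 48 hpf, against 7.08, 7.10, 7.0 and 7.06 at 24 hpf (log2 change -1.60, standard error 0.10, adjusted p = 7.4e-10). The histone mRNA binding protein gene *slbp* fell by 1.29 (adjusted p = 1.8e-10) and the origin recognition gene *orc6* by 1.32 (adjusted p = 2e-08). The test of the difference called the age change of 10 of the 58 above that of controls, where 4.05% of all genes were. With array weights it called 5 and with the replicate block 5, where 168 and 295 of all 8793 genes were above controls. The gene *gmnn* was among the 10 (-1.60 against -2.2, adjusted p of the difference = 0.024). Its mean was 7.06 in morphants and 7.52 in controls at 24 hpf, and 5.47 and 5.32 at 48 hpf. The gene *uhrf1*, which guides DNA methylation at the fork, averaged 8.01 ± 0.19 in morphants at 48 hpf and 8.10 ± 0.21 at 24 hpf (SD, n = 4 each), a change of -0.09 (adjusted p = 0.7), against -1.16 in controls (adjusted p of the difference = 0.0096).

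Of 63 genes of mitosis and the spindle 29 fell in morphants and 1 rose, where 27.4% and 21.7% of all genes did so. In controls 53 fell, where 30.3% of all genes did. The median change was -0.18 in morphants and -0.64 in controls. With the arrays centred on the ribosomal protein genes 17 were lowered and 15 raised in morphants, where 1136 and 4702 of all 8793 genes were. The list's median was then 0.07. Relative to the median of all genes it was -0.17 with and without this centring. By the test of the difference 24 members were above controls, where 4.05% of all genes were, and the others did not pass the test. This count was 24 after cyclic loess, 28 without control replicate 3 at 48 hpf, 26 without control replicate 4, 36 with ribosomal centring and 14 with array weights. Of all 8793 genes 299, 393, 604, 683 and 168 were above controls in these settings, in the same order.

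The kinetochore scaffold gene *knl1* had the largest difference from controls in this list. Its log2 values were 8.14, 7.94, 7.98 and 7.90 in morphants at 48 hpf, against 7.99, 7.96, 8.03 and 7.97 at 24 hpf, and the ages overlapped. In controls the ages did not overlap, with 6.96, 6.83 and 7.15 at 48 hpf, against 8.20, 8.11, 8.07 and 8.34 at 24 hpf. A dimmer probe set of *knl1* gave the same picture, with a log2 change of 0.12 in morphants and -1.12 in controls. The change was 0.00 in morphants (adjusted p = 0.98) and -1.2 in controls, a difference of 1.2 (standard error 0.12, adjusted p of the difference = 2.1e-05). Centred on the ribosomal protein genes *knl1* rose by 0.26 in morphants (adjusted p = 0.0098). The spindle protein gene *ckap2l* changed by -0.55 in morphants and -1.66 in controls (adjusted p of the difference = 5.1e-05). Other members fell by amounts that did not differ from controls by the test. The largest fall was that of the mitotic kinesin gene *kif20a*, with 8.02, 7.40, 7.53 and 7.46 in morphants at 48 hpf, against 9.75, 10.03, 9.69 and 9.66 at 24 hpf (log2 change -2.18, adjusted p = 2.3e-10). The change in controls was -1.67 (adjusted p of the difference = 0.13), and a dimmer probe set of *kif20a* fell by 0.44 in morphants. The spindle checkpoint gene *mad2l1* changed by -1.0 against -1.36 (adjusted p of the difference = 0.068) and the survivin gene *birc5a* by -0.89 against -0.99 (adjusted p of the difference = 0.68).

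**Figure D2:**
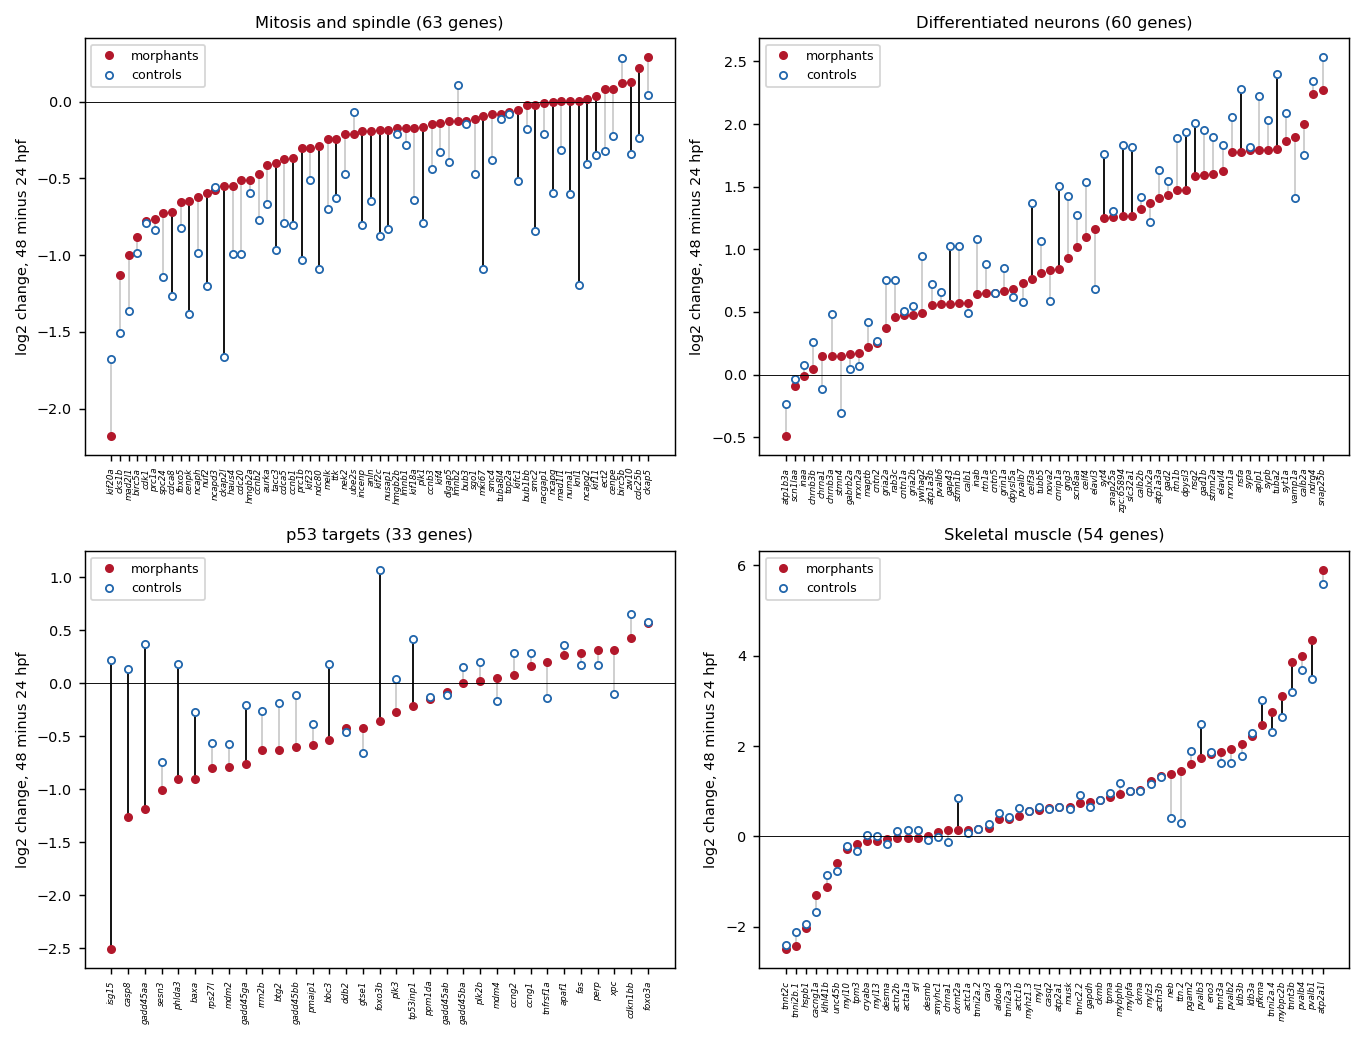
Log2 change from 24 to 48 hpf (vertical axis) of each measured gene of 4 lists, in morphants (filled) and controls (open), ordered by the change in morphants. Black lines join genes whose change differed between morphants and controls at an adjusted p of at most 0.05. In the mitosis and spindle panel 24 lines are black and in each the morphant point is higher. In the neuron panel and that of p53 targets and regulators 10 and 9 are black, and in each the morphant point is lower.

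The *esco2* transcript itself had log2 values of 8.28, 8.64, 8.61 and 8.68 in morphants at 48 hpf, against 8.97, 8.71, 8.87 and 8.83 at 24 hpf. It fell by 0.29 (standard error 0.09, adjusted p = 0.013), with morphant replicate 1 at 48 hpf lowest. The ages did not overlap, although replicate 4 at 48 hpf, the highest, was close to replicate 2 at 24 hpf, the lowest. In controls the values were 8.23, 8.23 and 8.01 at 48 hpf, against 9.19, 9.10, 9.19 and 9.16 at 24 hpf (log2 change -1.0). The difference was 0.71 (standard error 0.13, adjusted p of the difference = 0.0039). Without morphant replicate 1 at 48 hpf the change in morphants was -0.20 and did not pass the test (adjusted p = 0.051), and centred on the ribosomal protein genes it was -0.03 (adjusted p = 0.74). Of 12 measured genes of cohesin and its regulators 4 rose and 3 fell, where 21.7% and 27.4% of all genes did so. The log2 changes of the list lay between -0.38 and 0.41, with a median of -0.01 in morphants and -0.10 in controls. In 11 of the 12 the change in morphants was above that in controls, where this held for 4430 of all 8793 genes. By the test of the difference 2 were above controls, *esco2* among them, and 0 below, where 4.05% and 3.16% of all genes were. The gene *cdca5*, which encodes sororin, the protein that binds acetylated cohesin, fell by 0.38 (adjusted p = 0.0042), and *hdac8*, which encodes the cohesin deacetylase, by 0.35 (adjusted p = 0.0049). Centred on the ribosomal protein genes both lost their call, *cdca5* at -0.12 (adjusted p = 0.28) and *hdac8* at -0.10 (adjusted p = 0.36).

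The tumor suppressor p53 halts the cell cycle and can start cell death. Genes listed as its targets or regulators moved differently in morphants and in controls, and their dependence on p53 was not tested. The list was drawn up with earlier results of these data known. It holds *casp8*, whose RNA the paper had reported as raised in morphants, so the counts are a description. Of the 33 listed genes 17 fell and 5 rose in morphants, with a median of -0.36. In controls 7 fell and 8 rose, with a median of 0.04. Over all genes 27.4% fell and 21.7% rose in morphants, and 30.3% and 21.9% in controls. By the test of the difference 9 were below controls, where 3.16% of all genes were, and the others did not pass. With the arrays centred on the ribosomal protein genes 13 fell and 12 rose in morphants, where 1136 and 4702 of all 8793 genes did so. The number below controls was then 7, where 191 of all 8793 genes were below. The gene *isg15*, which encodes a ubiquitin-like protein also induced by interferon, had log2 values of 5.35, 5.21, 5.27 and 5.39 in morphants at 48 hpf, against 7.89, 8.11, 7.70 and 7.56 at 24 hpf. In controls they were 4.60, 4.53 and 4.52 at 48 hpf, against 4.17, 4.47, 4.34 and 4.34 at 24 hpf, so that morphants at 48 hpf were closer to controls than at 24 hpf and still above them. The change was -2.51 in morphants (standard error 0.10, adjusted p = 1.3e-12) and 0.22 in controls, and the difference of -2.73 was the largest of the named genes (adjusted p of the difference = 1.4e-08). The stress gene *gadd45aa* had 5.31, 5.58, 5.84 and 5.79 in morphants at 48 hpf, against 6.83, 6.95, 6.70 and 6.78 at 24 hpf. In controls its values were 4.42, 4.66 and 4.58 at 48 hpf, against 4.2, 4.06, 4.33 and 4.15 at 24 hpf, lower than in morphants at both ages.

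The same arrangement was seen in *casp8*, the initiator caspase gene of death receptor signaling, with 6.23, 6.17, 6.25 and 6.38 in morphants at 48 hpf, against 7.55, 7.15, 7.79 and 7.58 at 24 hpf. It changed by -1.26 in morphants and 0.14 in controls (adjusted p of the difference = 0.00015). The Akt inhibitor gene *phlda3* changed by -0.91 and 0.18 (adjusted p of the difference = 0.00015). In contrast *mdm2*, which encodes the ubiquitin ligase of p53, changed by -0.79 in morphants (adjusted p = 2.9e-07) and -0.58 in controls, with no difference past the test (adjusted p of the difference = 0.36). Nor did the difference pass for the sestrin gene *sesn3* (-1.01 against -0.75, adjusted p of the difference = 0.31). The cyclin G genes *ccng1* and *ccng2* changed by 0.16 (adjusted p = 0.16) and 0.08 (adjusted p = 0.67), and both rose with ribosomal centring (adjusted p = 0.00065 and 0.028). Mean levels of *ccng1* were above controls at both ages (12.43 against 11.18 at 48 hpf, 12.27 against 10.89 at 24 hpf). Those of *ccng2* were below controls (7.14 against 8.47 at 48 hpf, 7.07 against 8.18 at 24 hpf). The forkhead gene *foxo3b* changed by -0.36 in morphants (adjusted p = 0.062) and rose by 1.07 in controls (adjusted p of the difference = 0.001), although the difference did not pass for its other probe set (adjusted p = 0.56). Mean levels of *foxo3b* were above controls at both ages (8.96 against 8.28 at 48 hpf, 9.31 against 7.22 at 24 hpf).

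**Figure D3:**
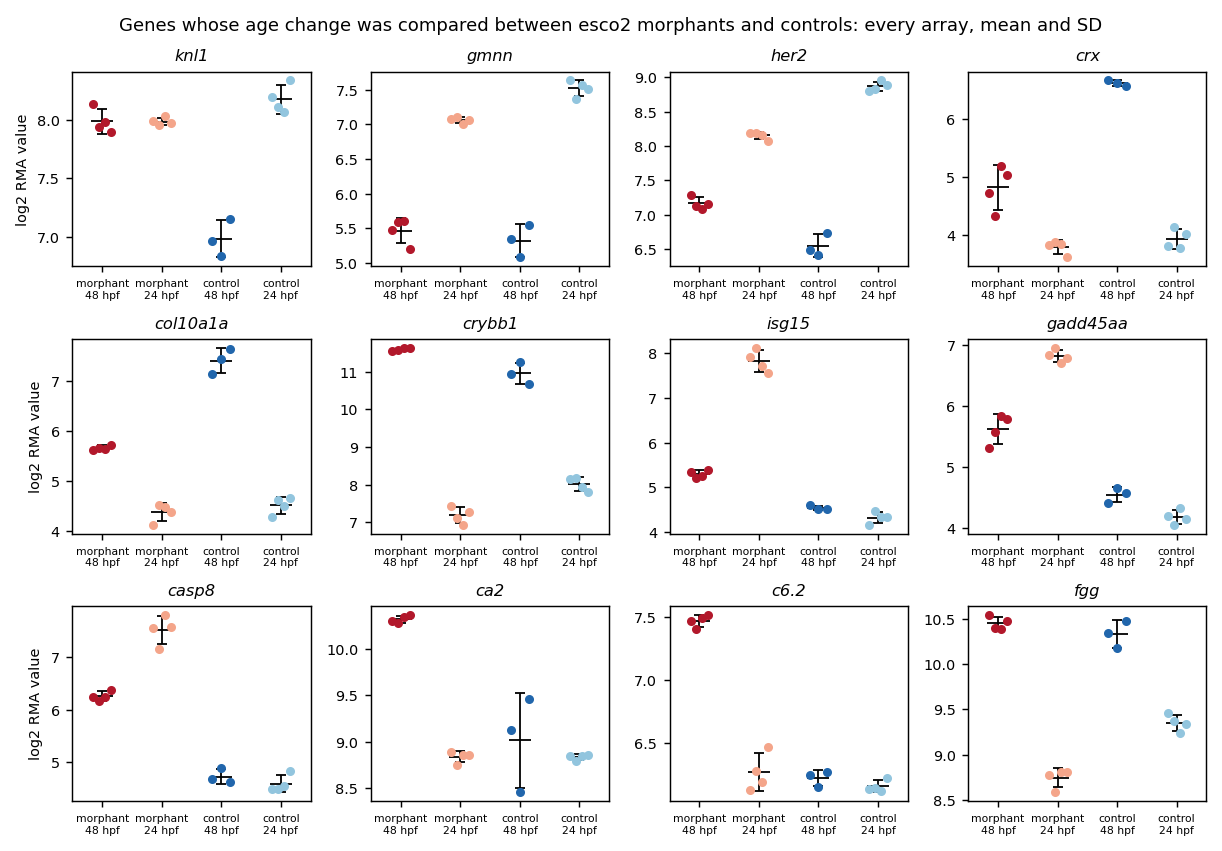
Log2 RMA values (vertical axis) of 12 genes on every array, for morphants at 48 and 24 hpf and controls at 48 and 24 hpf, with the group mean and SD in black. In *isg15*, *gadd45aa* and *casp8* morphants lie above controls at both ages and nearer to them at 48 hpf, while *knl1* keeps its level in morphants (log2 change 0.00) and falls in controls (-1.2).

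Most genes of ribosomes and their assembly fell. Of 55 genes of ribosome biogenesis 49 fell, where 27.4% of all genes did. The median was -0.53 in morphants and -0.75 in controls, and 31 fell with the arrays centred on the ribosomal protein genes. The number above controls was 5, where 4.05% of all genes were above. Without control replicate 4 at 48 hpf it was 14, where 604 of all 8793 genes were above. The nucleolar protein genes *imp3* and *nhp2* fell by 1.5 and 1.1 (adjusted p = 1.6e-10 and 1.3e-09). Of 72 ribosomal protein genes 53 fell in morphants (median -0.23) and 27 in controls (median -0.14), and 33 fell in morphants after cyclic loess. Over all genes 27.4% fell in morphants and 30.3% in controls. Centring on these genes removes their direction by construction. The gene *myca*, which encodes a Myc factor that drives ribosome production, changed by -0.21 (adjusted p = 0.028), and by 0.05 with the arrays centred on the ribosomal protein genes. The largest fall among ribosomal protein genes was that of *rpl22l1*, with 9.60, 9.38, 9.53 and 9.46 in morphants at 48 hpf, against 10.60, 10.51, 10.55 and 10.48 at 24 hpf (adjusted p = 1.3e-08), while *rpsa* changed by 0.02 (adjusted p = 0.84). Of 82 splicing genes 40 fell and 2 rose, where 27.4% and 21.7% of all genes did so. The gene *snrpg*, which encodes a core protein of the spliceosome, changed by -0.90 (adjusted p = 8.4e-08). Centred on the ribosomal protein genes 16 splicing genes fell and 29 rose. Relative to the median of all genes the list's median was -0.18 with and without this centring.

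Most enzymes of glycolysis, which yields ATP without oxygen, rose. Of 34 genes 23 rose and 3 fell, where 21.7% and 27.4% of all genes did so. The median was 0.48 in morphants and 0.59 in controls. By the test of the difference 6 were below controls and 1 above, where 3.16% and 4.05% of all genes were. The muscle enolase gene *eno3* had 11.65, 11.70, 11.57 and 11.56 in morphants at 48 hpf, against 9.95, 9.72, 9.72 and 9.83 at 24 hpf (log2 change 1.82, adjusted p = 1.2e-12), and *gapdhs*, a glyceraldehyde-3-phosphate dehydrogenase gene, had 11.64, 11.66, 11.48 and 11.52 in morphants at 48 hpf, against 9.73, 9.76, 9.79 and 9.66 at 24 hpf (log2 change 1.84, adjusted p = 5.3e-13). The phosphofructokinase gene of muscle, *pfkma*, rose by 2.46 against 3.02 in controls (adjusted p of the difference = 0.023). The aldolase gene *aldocb* rose by 0.78 against 1.44 (adjusted p of the difference = 0.0041). Its mean at 48 hpf was 8.95 in morphants and 8.96 in controls, and at 24 hpf it was 8.17 and 7.52. Of 74 subunits of the respiratory chain 24 rose and 21 fell (20 and 21 with the replicate block). Over all genes 21.7% rose and 27.4% fell. The cytochrome c oxidase gene *cox4i1l* rose by 1.04 in morphants and 2.59 in controls, a difference of -1.55 (adjusted p of the difference = 0.0011). Among antioxidant genes *sod2*, the mitochondrial superoxide dismutase gene, had 7.50, 7.39, 7.56 and 7.50 in morphants at 48 hpf, against 4.98, 4.77, 4.54 and 4.42 at 24 hpf (7.0-fold, adjusted p = 1.6e-12), and the catalase gene *cat* rose 4.91-fold (adjusted p = 7.3e-10). The changes of these 2 genes in controls were 2.79 and 1.93 on the log2 scale.

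Genes of the matrix of fins and skeleton were among the large rises. Actinodins form the horny fibers that stiffen the fin fold. The gene *and2* had log2 values of 9.59, 9.74, 9.79 and 9.64 in morphants at 48 hpf, against 4.93, 4.75, 5.16 and 4.78 at 24 hpf (27.6-fold, adjusted p = 1.9e-17), and *and1* and *and3* rose 18-fold and 28.6-fold. The differences of these 3 changes from those of controls lay between -0.13 and 0.12 and did not pass the test. Of 38 genes of fins and the fin fold 12 rose and 10 fell, where 21.7% and 27.4% of all genes did so. By the test of the difference 2 were below controls, where 3.16% of all genes were. One of them was the homeobox gene *meis2a*, which rose by 0.69 against 1.27 (adjusted p of the difference = 0.00089). In the signaling list the Wnt effector gene *lef1* rose by 0.98 against 1.82 (adjusted p of the difference = 0.00033). The collagen I genes *col1a1a* and *col1a2* rose by 1.39 and 1.46, and in controls by 1.40 and 1.44. Of 38 genes of cartilage and bone 19 rose and 1 fell, where 21.7% and 27.4% of all genes did so. The median was 0.26 in morphants and 0.47 in controls. By the test of the difference 7 were below controls, where 3.16% of all genes were. With array weights 3 were below, where 174 of all 8793 genes were. The collagen X gene *col10a1a*, expressed in bone cells and hypertrophic cartilage, had 5.61, 5.67, 5.64 and 5.73 in morphants at 48 hpf, against 4.12, 4.51, 4.47 and 4.37 at 24 hpf. It rose by 1.29 in morphants and 2.90 in controls (adjusted p of the difference = 2.1e-05). The cartilage regulator gene *sox9b* rose by 1.38 against 1.35 (adjusted p of the difference = 0.94), and its dimmer probe set by 0.33 in morphants. The fibronectin gene *fn1b* rose by 2.46 against 1.64 (adjusted p of the difference = 0.00034), and *efemp2b*, which encodes fibulin-4 of elastic fibers, fell by 3.05 (adjusted p = 5.3e-13), with morphant replicate 1 at 48 hpf lowest.

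Keratin genes moved in both directions. The genes *krt91* and *krt1-19e* rose 12.4-fold and 9.05-fold. The log2 values of *krt91* were 10.97, 10.83, 11.10 and 11.01 in morphants at 48 hpf, against 7.47, 7.23, 7.23 and 7.44 at 24 hpf (adjusted p = 2e-14). Other keratin genes fell, *krt99* with 5.67, 5.69, 5.55 and 5.92 in morphants at 48 hpf, against 7.94, 7.92, 7.96 and 7.81 at 24 hpf (log2 change -2.2, adjusted p = 1.1e-12) and *krt1-19d* by 2.51 (adjusted p = 1.3e-10). Keratins of close sequence can share probes, so their values may not be independent. For *krt91*, *krt1-19e*, *krt99* and *krt1-19d* the difference from controls did not pass the test (adjusted p of the difference between 0.084 and 0.68), while another probe set of *krt1-19e* did (0.43, adjusted p = 0.039). Of 60 skin genes 19 rose and 22 fell, where 21.7% and 27.4% of all genes did so, and 32 rose and 10 fell with the arrays centred on the ribosomal protein genes. Of 33 genes of ionocytes and kidney 13 rose and 6 fell, where 21.7% and 27.4% of all genes did so. The carbonic anhydrase gene *ca2* had 10.30, 10.28, 10.35 and 10.37 in morphants at 48 hpf, against 8.89, 8.75, 8.85 and 8.86 at 24 hpf. In controls they were 9.13, 8.45 and 9.46 at 48 hpf, against 8.85, 8.79, 8.84 and 8.85 at 24 hpf, with replicate 3 at 48 hpf below the arrays at 24 hpf. The gene rose by 1.49 in morphants and changed by 0.18 in controls, a difference of 1.31 (standard error 0.20, adjusted p of the difference = 0.001). The water channel gene *aqp3a* rose by 1.46 against 1.29 (adjusted p of the difference = 0.6).

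Genes of red blood cells moved both ways, 15 of 33 up and 7 down, where 21.7% of all genes rose and 27.4% fell. The embryonic globin gene *hbbe2* had 9.99, 9.96, 9.96 and 9.75 in morphants at 48 hpf, against 7.91, 7.92, 7.89 and 7.82 at 24 hpf (log2 change 2.03, adjusted p = 1.3e-12). Its change in controls was 2.74 (adjusted p of the difference = 0.0018). The gene *alas2*, which encodes the first enzyme of heme synthesis in red cells, rose by 0.82 against 1.73 (adjusted p of the difference = 0.0011). The anion exchanger gene *slc4a1a* rose by 2.17 against 2.2 (adjusted p of the difference = 0.96), and *urod*, a later enzyme of heme synthesis, fell by 1.46 in morphants (adjusted p = 3.3e-10). The Runx genes, which act in blood and in skeletal development, had log2 changes of 0.12 for *runx1* (adjusted p = 0.36) and 0.49 for *runx3* (adjusted p = 0.00013). Among genes of white blood cells the lysozyme gene *lyz* had 9.87, 9.84, 9.85 and 9.74 in morphants at 48 hpf, against 7.09, 7.04, 6.96 and 7.06 at 24 hpf (6.89-fold, adjusted p = 4.9e-16), and the cathepsin S gene *ctss2.1* changed by -2.18, against -2.84 in controls (adjusted p of the difference = 0.03). Matrix metalloproteinases cut the extracellular matrix. Their genes differed, since *mmp9* rose by 1.1, with a change of 0.04 in controls (adjusted p of the difference = 0.00034), and *mmp13a* rose by 0.33 against 1.35 (adjusted p of the difference = 0.0011). The rise of *mmp13a* did not pass the test without morphant replicate 1 or 2 at 48 hpf (adjusted p = 0.051 and 0.077).

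Of 60 genes of the liver and of plasma proteins 27 rose and 14 fell, where 21.7% and 27.4% of all genes did so. The ceruloplasmin gene *cp* had 8.12, 8.17, 8.11 and 8.21 in morphants at 48 hpf, against 5.34, 5.49, 5.66 and 5.73 at 24 hpf (6.05-fold, adjusted p = 9.6e-12). The fibrinogen genes *fgb* and *fgg* rose by 1.57 and 1.70 in morphants and 0.82 and 0.98 in controls, with an adjusted p of the difference of 0.00083 and 0.0015. The levels of *fgg* at 48 hpf were close, 10.45 in morphants and 10.33 in controls, and at 24 hpf they were 8.75 and 9.35. The test of the difference called 10 of the 60 above controls and 3 below, where 4.05% and 3.16% of all genes were. With array weights 6 were above, where 168 of all 8793 genes were. The urate oxidase gene *uox* had the largest fall of all 8793 genes, with 3.57, 3.49, 3.69 and 3.29 in morphants at 48 hpf, against 7.83, 7.92, 7.76 and 7.56 at 24 hpf (19.2-fold, adjusted p = 8.2e-16), and its values at 48 hpf were in the dim range. Complement acts in innate immunity. Its gene *c4b* rose by 2.11 against 0.73 in controls (adjusted p of the difference = 0.00036), and *c6.2* rose by 1.2, with a change of 0.07 in controls (adjusted p of the difference = 1.4e-05).

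Carriers of lipid changed in opposite directions. The apolipoprotein gene *apoea* had 9.75, 9.65, 9.36 and 9.69 in morphants at 48 hpf, against 7.20, 6.63, 7.01 and 7.71 at 24 hpf (5.56-fold, adjusted p = 1.3e-09), while *apoa4a* had 7.12, 7.06, 6.62 and 6.72 in morphants at 48 hpf, against 8.46, 8.48, 8.46 and 8.55 at 24 hpf. Its change was -1.61 in morphants and -0.49 in controls (adjusted p of the difference = 0.00066). The intestinal fatty acid binding protein gene *fabp2* changed by -2.46, against -1.99 in controls (adjusted p of the difference = 0.0076). Lysosomal protease genes had some of the largest falls. The gene *ctsll*, a cathepsin L gene, had 4.87, 4.88, 4.78 and 4.51 in morphants at 48 hpf, against 9.10, 8.99, 8.85 and 9.05 at 24 hpf (18.8-fold, adjusted p = 6.4e-15), and the cathepsin C gene *ctsc* fell 13.9-fold (adjusted p = 1.9e-12). The gene *ctsll* fell more in morphants than in controls (-0.74, adjusted p of the difference = 0.016). Pancreas genes rose in part, with 16 of 42 gut and pancreas genes up and 5 down, where 21.7% of all genes rose and 27.4% fell. The gene *ptf1a*, a regulator of the exocrine pancreas, rose by 1.21 against 1.41 (adjusted p of the difference = 0.57), and the islet and neuron gene *isl1a* by 0.71 against 1.35 (adjusted p of the difference = 0.0013; 0.055 for its dimmer probe set).

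Neural crest cells give rise to pigment cells, peripheral glia and cartilage of the head. Of 38 genes of crest cells 8 rose and 11 fell, where 21.7% and 27.4% of all genes did so. With the arrays centred on the ribosomal protein genes 20 rose and 7 fell, where 4702 and 1136 of all 8793 genes did so. By the test of the difference 4 were below controls and 1 above, where 3.16% and 4.05% of all genes were. The crest gene *tfap2b* rose by 1.43 against 2.33 in controls (adjusted p of the difference = 6.5e-05). The crest gene *foxd3* changed by -1.02 against -0.44 (adjusted p of the difference = 0.011), and *sox10*, which crest cells keep as they become glia and pigment cells, fell by 0.33 in morphants and changed by 0.24 in controls (adjusted p of the difference = 0.0043). With ribosomal centring the change of *sox10* in morphants was -0.07 and did not pass the test (adjusted p = 0.41). The crest marker gene *crestin* changed by -1.1 against -1.86, with no difference past the test (0.76, standard error 0.26, adjusted p of the difference = 0.1). The melanin synthesis gene *dct* rose by 1.84 (adjusted p = 3.2e-11), against 1.74 in controls (adjusted p of the difference = 0.75). In vessels the water channel gene *aqp1a.1* rose by 1.19 against 1.17 (adjusted p of the difference = 0.95), and the tight junction gene *cldn5a* changed by -0.50 against -1.44 (adjusted p of the difference = 0.0027). Dim probe sets of *cldn5a*, with mean levels of 3.05 and 3.32, changed by 0.06 and -0.04 in morphants (adjusted p of the difference = 0.62 and 0.79). The fall in morphants did not pass for the mean of its probe sets (adjusted p = 0.058) or with ribosomal centring (adjusted p = 0.064). In the heart list 5 of 28 genes rose and 10 fell, where 21.7% and 27.4% of all genes did so. Centred on the ribosomal protein genes 12 rose and 7 fell. The myosin binding protein gene *mybpc3* rose by 2.42 (adjusted p = 2.7e-14) and the myosin light chain gene *myl7* fell by 0.51 (adjusted p = 2.8e-06). Of 18 genes of the notochord and floor plate 9 fell and 4 rose, where 27.4% and 21.7% of all genes did so. With the arrays centred on the ribosomal protein genes 7 fell and 8 rose. The regulator gene *noto* fell by 1.32 (adjusted p = 9.1e-09) and the Brachyury gene *tbxta* by 1.01 (adjusted p = 4.4e-09).

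Of 33 genes of the circadian clock and of light responses 17 rose and 2 fell, where 21.7% and 27.4% of all genes did so. The repressor gene *nfil3-5* rose by 1.57 (adjusted p = 4.8e-09) and the light-induced clock gene *per2* by 0.89 (adjusted p = 2.7e-08). Of 44 genes of the Hox clusters and their Cdx regulators 15 fell and 5 rose, where 27.4% and 21.7% of all genes did so. With the arrays centred on the ribosomal protein genes 18 rose and 6 fell, where 4702 and 1136 of all 8793 genes did so. Relative to the median of all genes the list's median was -0.12 with and without this centring. The hindbrain gene *hoxb1a* fell by 1.07 (adjusted p = 1.2e-07). Of 91 genes of Wnt, Fgf, Bmp, Hedgehog and Notch signaling 20 rose and 18 fell (22 and 24 with array weights). Over all genes 21.7% rose and 27.4% fell. The log2 changes of the list lay between -0.88 and 0.98. The Wnt inhibitor gene *dkk1b* changed by -0.88, against -0.28 in controls (adjusted p of the difference = 0.0017). Its mean at 48 hpf was 5.75 in morphants and 5.76 in controls, and at 24 hpf it was 6.63 and 6.04. Among chaperones *fkbp5*, a partner of steroid receptors, had 7.12, 7.42, 7.70 and 7.60 in morphants at 48 hpf, against 4.44, 4.43, 4.69 and 4.61 at 24 hpf (7.56-fold, adjusted p = 5e-12), and the small heat shock protein gene *hspb1* fell by 2.03 (adjusted p = 2.6e-12). The heat shock cognate gene *hsc70* rose 20.7-fold by its brightest probe set and by 0.88 on the log2 scale by the other.

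**Figure D4:**
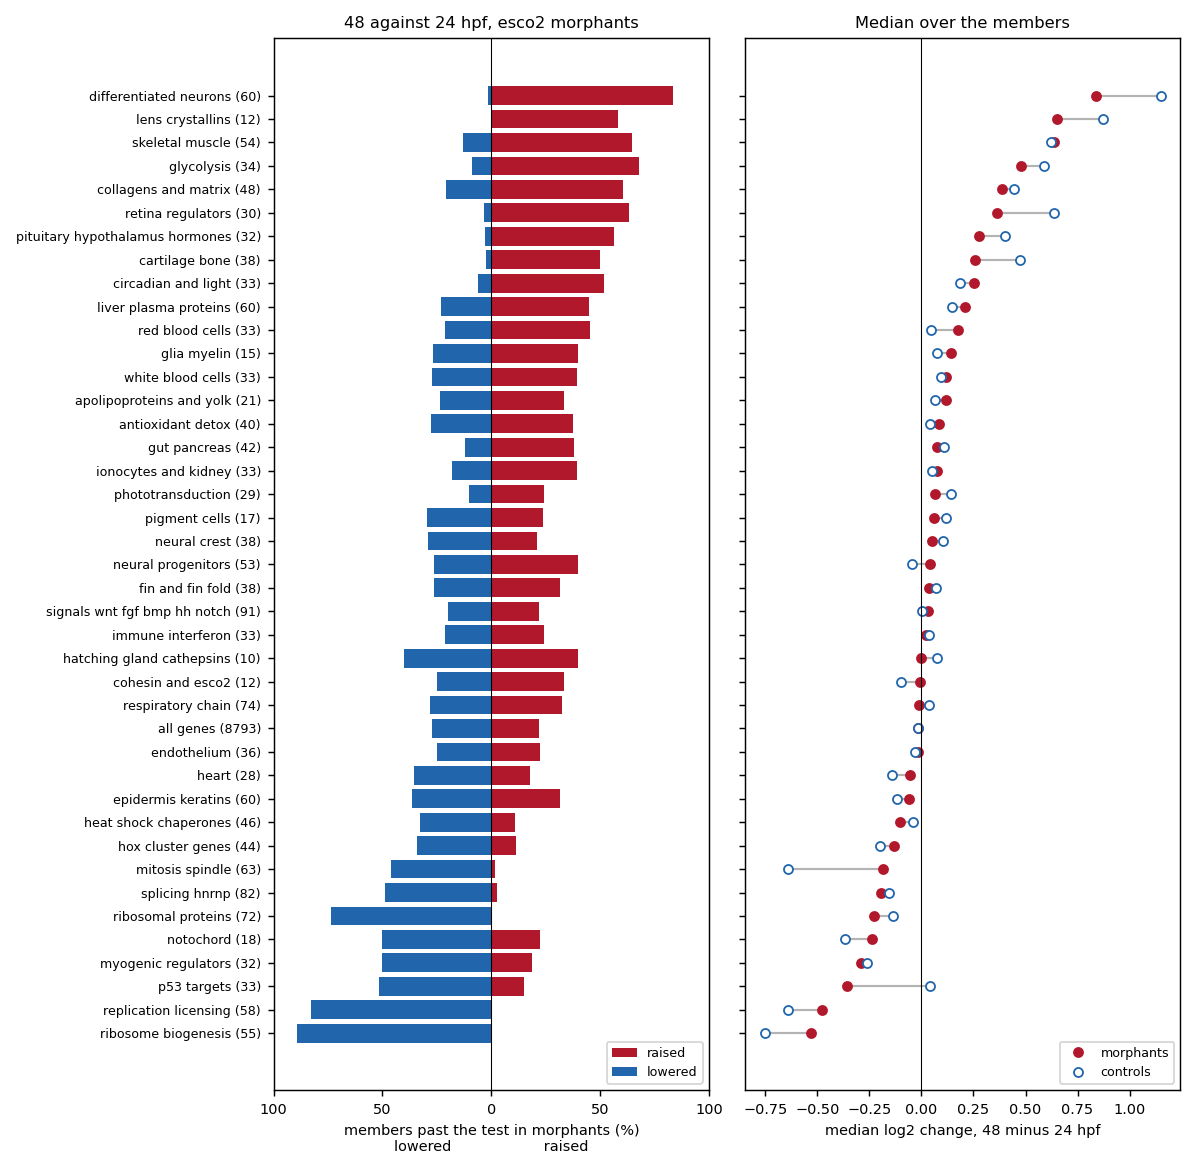
Left, share of the measured genes of each list that rose (right of 0) or fell (left of 0) with age in morphants at an adjusted p of at most 0.05. Right, the median log2 change in morphants (filled) and controls (open). Differentiated neurons lie highest, at 0.84 in morphants, and ribosome biogenesis lowest, at -0.53. Morphants and controls lie farthest apart in mitosis and spindle genes, at -0.18 and -0.64, and in p53 targets and regulators, at -0.36 and 0.04.

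The age changes of morphants were set against those of controls, with which they share no array. Across 8793 genes the changes had a Pearson correlation of 0.898, a description, since genes are not independent replicates. In controls 405 genes (4.61%) rose and 336 (3.82%) fell by at least 2-fold. Of the 342 genes that rose by at least 2-fold in morphants, 284 did so in controls, which is 83.0% of the morphants' genes and 70.12% of the controls'. Of the 191 that fell, 139 also fell by at least 2-fold in controls, 72.8% of the morphants' genes and 41.4% of the controls'.

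The difference of the age changes passed the test in 634 of 8793 genes (7.21%), 356 of them above controls (4.05%) and 278 below (3.16%). The balance turned with cyclic loess, to 299 above and 368 below, and with array weights, to 168 and 174, while centring on the ribosomal protein genes gave 683 and 191. With the deposited values most were genes that changed in controls and changed less in morphants. Of the 634, 248 fell in controls and fell less or did not fall in morphants, and 197 rose in controls and rose less or did not rise in morphants. A further 36 rose more in morphants than in controls, 35 fell more, and 25 changed in opposite directions. In the remaining genes the change in controls did not pass the test, with morphants above controls in 57 and below in 36. The change in controls is part of the difference, so this sorting favours genes with a large change in controls. Picking genes by a change of at least 2-fold in morphants favours the other side. Of genes so picked, 187 of 342 rises and 87 of 191 falls were smaller than in controls. The scaffold protein gene *ahnak* had the largest difference above controls of the named genes, with log2 values of 9.04, 9.17, 9.33 and 9.25 in morphants at 48 hpf, against 8.83, 8.67, 8.82 and 8.79 at 24 hpf (log2 change 0.42, adjusted p = 0.051). In controls they were 7.40, 6.86 and 7.95 at 48 hpf, against 9.04, 8.58, 8.68 and 9.05 at 24 hpf (log2 change -1.43). The difference was 1.85 (standard error 0.24, adjusted p of the difference = 0.00031). The secretory vesicle gene *ptprna* rose by 0.62 and changed by -0.54 in controls (adjusted p of the difference = 1.4e-05), and the plectin gene *pleca* rose by 0.56 and changed by -0.81 in controls (adjusted p of the difference = 0.00037). The number of probe sets above controls, 582 on all arrays (3.75%), was 1068 without control replicate 4 at 48 hpf and 248 with array weights, and the number below, 391 (2.52%), was 516 and 243.

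**Figure D5:**
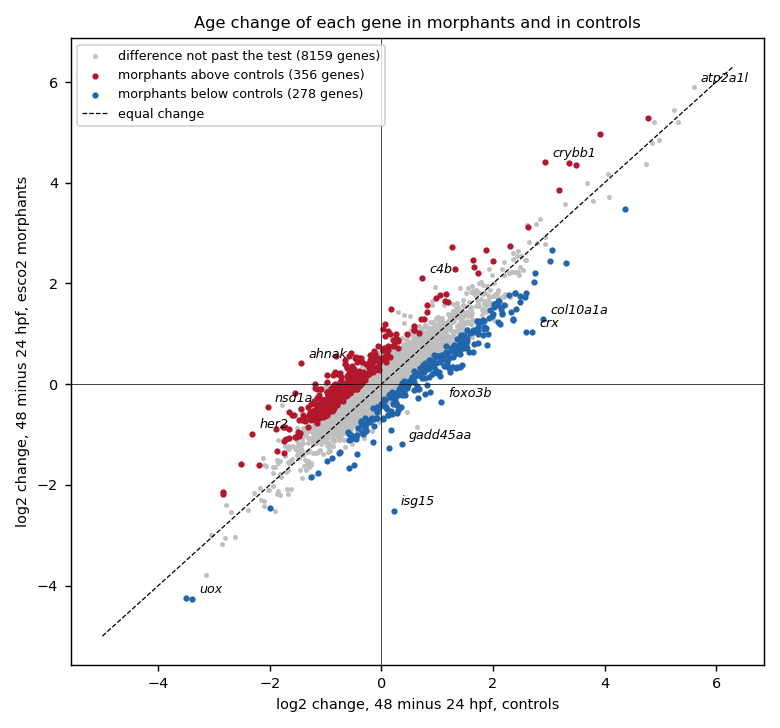
Log2 change from 24 to 48 hpf of each of 8793 genes in morphants (vertical axis) against controls (horizontal axis). Red and blue points are the 356 and 278 genes whose change in morphants was above or below that of controls, the dashed line marks equal change, and *isg15* lies farthest below it, at -2.51 in morphants and 0.22 in controls.

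The size of the age change was summarised over the 1144 probe sets that changed with age in controls by 1 or more on the log2 scale and whose adjusted p was below 0.001. Each array was placed on a line on which the mean of controls is 0 at 24 hpf and 1 at 48 hpf. Morphants at 48 hpf lay at 0.782, 0.783, 0.809 and 0.785, and controls at 0.981, 0.995 and 0.981, each placed on a line fitted without it. At 24 hpf morphants lay at -0.06, -0.04, -0.04 and -0.03, and controls at -0.01, 0.04, -0.01 and -0.01. These probe sets were chosen for their change on the control arrays, so the positions are a description and no test of morphants against controls is given. Over the 631 probe sets that rise in controls morphants at 48 hpf lay at 0.822 ± 0.020 (SD, n = 4), and controls at 0.991 ± 0.057 (SD, n = 3). Over the 513 that fall they lay at 0.730 ± 0.010 (SD, n = 4), and controls at 0.985 ± 0.129 (SD, n = 3). Among those that fall the control arrays were 0.953, 1.13 and 0.875, with replicate 3 highest, so that the spread of controls was wide there.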

How the data were processed

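Total RNA was hybridized to Affymetrix zebrafish arrays. The deposited table holds log2 values that the authors computed with RMA, which corrects background, makes the arrays' distributions alike and summarises the probes of a probe set, so a shift shared by most genes would be removed. Probe sets were named from the platform annotation: 10795 of 15502 had 1 symbol, 135 several and 4572 none. limma (version 3.58.1, R 4.3.3) fitted a mean for each of the 4 groups to 15 arrays with empirical Bayes variances. It tested 48 against 24 hpf in morphants and in controls, and the difference of both changes. Named genes were the largest rises and falls, the largest differences from controls and, per list of genes, the leading members, a member against the trend and those differing from controls, together with genes of the study's questions and 5 cell type markers added later. The text gives part of the genes so chosen. The members, the 40 lists and the rules were chosen with earlier results of these data known. Differences within the lists under single settings were added after seeing the data. Alternatives were other scalings, array weights, replicate block, thresholds, probe set rules and leaving out arrays. The fit was tested on simulated data. Positions used numpy 2.4.6 and figures matplotlib 3.10.9. A permutation test of the positions was planned and left out, because their probe sets were chosen on the control arrays. Nothing says whether pools came from separate clutches, so p-values measure the spread between pools.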

Additional observations from a re-analysis of the deposited data

Results flagged for a closer look

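The change with age differed between morphants and controls past the test (adjusted p of at most 0.05) in 59 of the 138 named genes, 27 above and 32 below controls. The named genes were chosen in part for this difference, so these counts are no estimate of its frequency. Each value in parentheses is the log2 change in morphants minus that in controls. Genes that fell with age in controls and fell less, or did not fall, in morphants were *ahnak* (1.85), *her2* (1.33), *knl1* (1.2), *ckap2l* (1.11), *uhrf1* (1.07), *cldn5a* (0.94), *esco2* (0.71), *ctss2.1* (0.66), *gmnn* (0.60) and *myl7* (0.35). Genes that rose in controls and rose less, or did not rise, in morphants were *crx* (-1.66), *col10a1a* (-1.61), *cox4i1l* (-1.55), *foxo3b* (-1.42), *mmp13a* (-1.02), *otx2b* (-0.92), *alas2* (-0.91), *tfap2b* (-0.90), *lef1* (-0.84), *atoh7* (-0.84), *pvalb3* (-0.73), *hbbe2* (-0.71), *cnrip1a* (-0.66), *aldocb* (-0.66), *isl1a* (-0.64), *celf3a* (-0.61), *meis2a* (-0.59), *pfkma* (-0.57) and *slc1a2b* (-0.39). Genes that rose in both and more in morphants were *crybb1* (1.46), *c4b* (1.37), *cryba4* (1.04), *pvalb1* (0.87), *fn1b* (0.82), *fabp7a* (0.80), *fgb* (0.76), *fgg* (0.72), *tnnt3b* (0.67), *ascl1a* (0.53) and *slc25a4* (0.50). Genes that fell in both and more in morphants were *apoa4a* (-1.11), *uox* (-0.87), *ctsll* (-0.74), *dkk1b* (-0.59), *irx7* (-0.58), *foxd3* (-0.57), *irx1b* (-0.52) and *fabp2* (-0.47). Genes that changed in opposite directions were *gadd45aa* (-1.55), *pleca* (1.37), *ptprna* (1.16) and *sox10* (-0.57). Genes whose change in controls did not pass the test and which were above controls were *ca2* (1.31), *c6.2* (1.14), *mmp9* (1.06) and *dlc* (0.67). Genes whose change in controls did not pass the test and which were below controls were *isg15* (-2.73), *casp8* (-1.40) and *phlda3* (-1.09). The part of single cell types, depth or stage in these differences was not tested.

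In groups of 4 arrays, a single array stood far from the other 3 in 26 of 417 cases (6.24%), and chance alone gives about 1 in 20. The values are log2 values. In morphants at 48 hpf these were *atoh7* in replicate 2 (highest, 5.45), *atp1b3a* in replicate 1 (lowest, 8.19), *cdca5* in replicate 2 (lowest, 6.91), *efemp2b* in replicate 1 (lowest, 4.41), *esco2* in replicate 1 (lowest, 8.28), *foxn4* in replicate 4 (highest, 7.83), *hbbe2* in replicate 4 (lowest, 9.75), *krt4* in replicate 2 (highest, 13.29), *mdm2* in replicate 4 (highest, 9.33), *myca* in replicate 4 (lowest, 7.10), *mylpfa* in replicate 2 (highest, 13.19), *nhp2* in replicate 1 (highest, 10.15), *sesn3* in replicate 1 (lowest, 9.36) and *sox9b* in replicate 4 (lowest, 8.90). In morphants at 24 hpf these were *cat* in replicate 1 (highest, 4.59), *fgg* in replicate 2 (lowest, 8.58), *mylpfa* in replicate 4 (lowest, 12.09) and *pvalb3* in replicate 2 (lowest, 6.40). In controls at 24 hpf these were *ca2* in replicate 2 (lowest, 8.79), *casp8* in replicate 4 (highest, 4.83), *cdca5* in replicate 1 (lowest, 7.62), *ctsc* in replicate 2 (lowest, 8.44), *myl7* in replicate 3 (lowest, 8.77) and *ptprna* in replicate 1 (highest, 8.62). On the line between the control ages, morphant replicate 3 at 48 hpf was the highest of its group at 0.809, and control replicate 2 at 24 hpf the highest of its group at 0.0353.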

How the results depend on the processing

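The 15 alternatives run for single genes (7 other settings and 8 morphant arrays left out in turn) covered the age change in morphants alone. In that change 122 of the 138 named genes kept their direction and their side of the threshold, and in the others the call changed. The differences of single genes from controls were not rerun under these alternatives or without a control array. The direction turned only for *myca*, to 0.0492 with the arrays centred on the ribosomal protein genes. Without 1 morphant array *esco2*, *krt4*, *mmp13a* and *myca* lost their call. Centring on the ribosomal protein genes gave 927 probe sets raised and 145 lowered in morphants (549 and 282 in the analysis reported), 1093 above controls (582) and 304 lowered in controls (518). Cyclic loess gave 474 above and 511 below controls. Array weights gave 248 above and 243 below controls (391). A minimum fold of 1.5 gave 1317 raised and 1037 lowered in morphants and 1387 and 1685 in controls, and a fold of 4 gave 85 and 44 in morphants and 128 and 55 in controls. A fold of 2 for the difference left 65 above and 29 below. Counting genes gave 342 raised in morphants, 356 above controls, and 405 raised and 336 lowered in controls. The treat test against a fold of 2 gave 265 raised and 120 lowered. Of the listed genes 447 rose and 476 fell, 144 and 58 of them by at least 2-fold. Morphants at 48 hpf lay at 0.855 on the line between the control ages with an adjusted p under 0.05 and a fold of 4, at 0.822 over rising and at 0.730 over falling probe sets (0.790 over all).

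With single arrays left out, the counts ranged from 528 to 560 raised and 267 to 296 lowered in morphants, 625 to 676 and 419 to 646 in controls, 388 to 1068 above and 279 to 516 below controls, and the position from 0.779 to 0.795. The highest count above controls was without control replicate 4 at 48 hpf. With the replicate number as a block 549 probe sets were raised and 282 lowered in morphants, 488 above and 317 below controls, and 634 raised and 535 lowered in controls. The labels do not say that a number marks a shared batch, and between the morphant ages same-numbered arrays had correlations of deviations from -0.24 to 0.04, with 0 of 4 highest for their own number. Between morphants and controls at 24 hpf 3 of 4 pairs were over 0.1 (0.02 to 0.20) and 3 of 4 were highest for their own number, and between those at 48 hpf all were below 0. Not every pair was over 0.1, so the block was not used. Depth does not apply to arrays; dim probe sets and 3 control arrays at 48 hpf limit what could be seen.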
